A study of Mus musculus with 6 samples.

Results

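The genes described here are the 28 genes that liver cells use to turn sugar into fatty acids and to store fatty acids as triglyceride, out of 32285 features counted in nuclei of fasted mouse liver. They were taken by symbol from the feature list of each library, and each symbol matched 1 feature. By role, 6 act in fatty acid synthesis (Acly, Acaca, Acacb, Fasn, Me1 and Thrsp) and 6 in desaturation and elongation (Scd1, Scd2, Elovl5, Elovl6, Fads1 and Fads2). Another 8 assemble glycerolipids (Gpd1, Gpam, Agpat2, Lpin1, Lpin2, Dgat1, Dgat2 and Mogat1), 5 act in glycolysis and fructose use (Pklr, Gckr, Pfkl, Pfkfb1 and Khk), and 3 act in transcription control (Srebf1, Mlxipl and Insig2).

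In the fed liver, glucose and fructose are broken down by glycolysis, the carbon leaves the mitochondria as citrate, and cytosolic enzymes build it into palmitate, which is then desaturated, elongated and joined to glycerol. Insulin switches this pathway on through the transcription factor SREBP-1c, the product of Srebf1, and sugar does so through ChREBP, the product of Mlxipl. Fasting turns both inputs down, while INSIG2, which is made in the fasted liver, holds SREBP proteins in the endoplasmic reticulum, and the lipins LPIN1 and LPIN2 rise with glucagon and glucocorticoid signals.

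Nuclei came from the livers of 6 male mice of the C57BL/6JBomTac background, 18 weeks old, fed chow and fasted overnight for 12 h. The control group held 3 mice whose genotype is given as Plvap Control, and the knockout group held 3 mice given as Plvap knockout, in which Plvap, the diaphragm protein of fenestrae and caveolae, was targeted in hepatic stellate cells. Both groups carry the same strain designation, Plvaptm1.1Salm-Tg(Lrat-cre)1Rshw, in which Cre is driven by Lrat regulation, a gene of the retinoid-storing stellate cell, and whether the controls carried Cre is not stated. Each mouse gave 1 library, so a p-value between the groups sets their difference against the spread between mice. Between zones or cell classes of the same mice, mouse was a block. A difference there is set against how much it varied from mouse to mouse.

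The libraries held 23153182 to 27199466 unique molecular identifiers (UMIs, counts of distinct RNA molecules), and 25663 nuclei were kept. Plvap in stellate nuclei was at 244, 229 and 254 CPM (UMIs scaled to a common library total) in the controls 1 to 3 and at 231, 187 and 157 CPM in the knockouts 1 to 3 (log2 fold change -0.33 with an SE of 0.140, edgeR adjusted p 1.0), and the deleted part is not given, so this level checks neither the deletion nor the labels. Hepatocyte nuclei, named from 12 marker genes that are no members, numbered 1125, 715 and 989 in the controls and 778, 914 and 696 in the knockouts, with median depths of 9195 to 11744 UMIs. Hepatocyte nuclei of control 1 and knockout 2 stood apart in a clustering from which the 28 genes were left out. Clusters 7 and 16 held 77.9% and 21.9% of the hepatocyte nuclei of control 1 and 78.2% and 20.5% of those of knockout 2, whereas hepatocytes of the other 4 libraries lay in clusters 2, 14 and 19, with at most 0.14% of any of them in cluster 7 and at most 0.257% in cluster 16. Results in hepatocytes are therefore given with and without these libraries. Pairs of libraries shared 1 to 10 cell barcodes.

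The 5′ flanks of 4 members with a promoter entry whose hepatocyte level ranged most widely over the 6 mice are shown first, since the results turn on how these genes differed between mice. RefSeq promoter entries (mm10) were matched for 22 of the 28 members, and Scd1, Scd2, Fads1, Gpd1, Dgat1 and Dgat2 had none. Of several entries, the one nearest to the annotated gene start was taken. The 250 bases before the start are printed on the gene's own strand for Lpin1 (chr12:16610967-16611216, minus strand), Insig2 (chr1:121332590-121332839, minus strand), Lpin2 (chr17:71183282-71183531, plus strand, inside the span annotated for the gene) and Pklr (chr3:89135892-89136141, plus strand). Capitals mark any of 4 motifs on either strand, namely TCACNCCAC, the core of a sterol response element, CACGTG, the E-box that makes up part of a carbohydrate response element, CCAAT, and GGGCGG, the GC box.
Lpin1: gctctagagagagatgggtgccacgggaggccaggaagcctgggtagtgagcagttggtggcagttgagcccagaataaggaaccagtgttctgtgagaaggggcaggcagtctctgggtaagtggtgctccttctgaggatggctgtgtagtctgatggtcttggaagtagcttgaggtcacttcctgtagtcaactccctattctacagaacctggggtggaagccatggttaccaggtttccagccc
Insig2: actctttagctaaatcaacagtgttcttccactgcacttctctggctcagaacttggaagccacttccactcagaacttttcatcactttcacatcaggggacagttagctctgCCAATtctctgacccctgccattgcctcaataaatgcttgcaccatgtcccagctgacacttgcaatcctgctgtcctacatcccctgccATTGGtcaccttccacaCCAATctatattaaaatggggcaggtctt
Lpin2: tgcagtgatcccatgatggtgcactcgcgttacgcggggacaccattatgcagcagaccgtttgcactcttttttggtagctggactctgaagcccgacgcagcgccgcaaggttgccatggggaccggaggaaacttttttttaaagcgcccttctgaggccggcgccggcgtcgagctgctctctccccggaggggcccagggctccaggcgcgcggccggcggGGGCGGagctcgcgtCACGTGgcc
Pklr: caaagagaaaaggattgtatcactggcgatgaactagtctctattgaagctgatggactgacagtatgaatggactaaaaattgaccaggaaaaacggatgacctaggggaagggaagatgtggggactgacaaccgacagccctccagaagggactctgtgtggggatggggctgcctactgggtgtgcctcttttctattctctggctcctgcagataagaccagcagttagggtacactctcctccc
No TCACNCCAC lay in any of the 22 member promoters, against 1.05% of the 32851 promoters of the table. Member shares take 1 entry per gene, whereas shares of the table take every entry, with several for some genes. CACGTG lay in 4 of 22 (18.2%, against 6.02% of all), in Lpin2, Elovl5, Khk and Mlxipl. CCAAT lay in 9 (40.9%, against 33.8%), with 3 copies in Insig2 (1 of them read as ATTGG on the other strand), and GGGCGG in 8 (36.4%, against 32.7%). The windows of Lpin1 and Pklr held none of the 4. Insig2 and Lpin2 had 3 entries each and Pklr had 2, and only the printed ones are described. For Pklr the lack of a motif thus holds for the printed window alone. Which start hepatocytes used was not examined. A match describes the letters only.

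In hepatocytes, 27 of the 28 members passed the low-count filter, and Scd2, with 26 UMIs over 6 mice, did not. Levels below are CPM on totals scaled by TMM, edgeR's correction for library composition, and are not compared between genes. None of the 27 passed an adjusted p of 0.05 between knockout and control in edgeR's quasi-likelihood test, and 1, Scd1, had an unadjusted p below 0.05. The background was the same, with 0% of 13725 genes called and 3.44% at an unadjusted p below 0.05. DESeq2 called 0 members and 15 genes. The median log2 fold change of the members was -0.07, with 12 higher and 15 lower in the knockouts, against -0.002 over all tested genes.

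Mice of the same group differed widely in these genes. The SD of log2 CPM within a group had a median of 0.52 over the 27 members, against 0.28 over all tested genes, and the range over the 6 mice had a median of 1.59 log2 units, against 0.74. In 8 of the 27 (29.6%) that range, on log2 CPM with a prior count of 2, was over 2 units, against 5.84% of all tested genes, and on plain CPM the highest mouse was more than 4-fold above the lowest in 9, Thrsp included. Among genes of at least 10 CPM the shares were 33.3% of 24 members and 3.98% of 8840 genes.

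**Figure D1:**
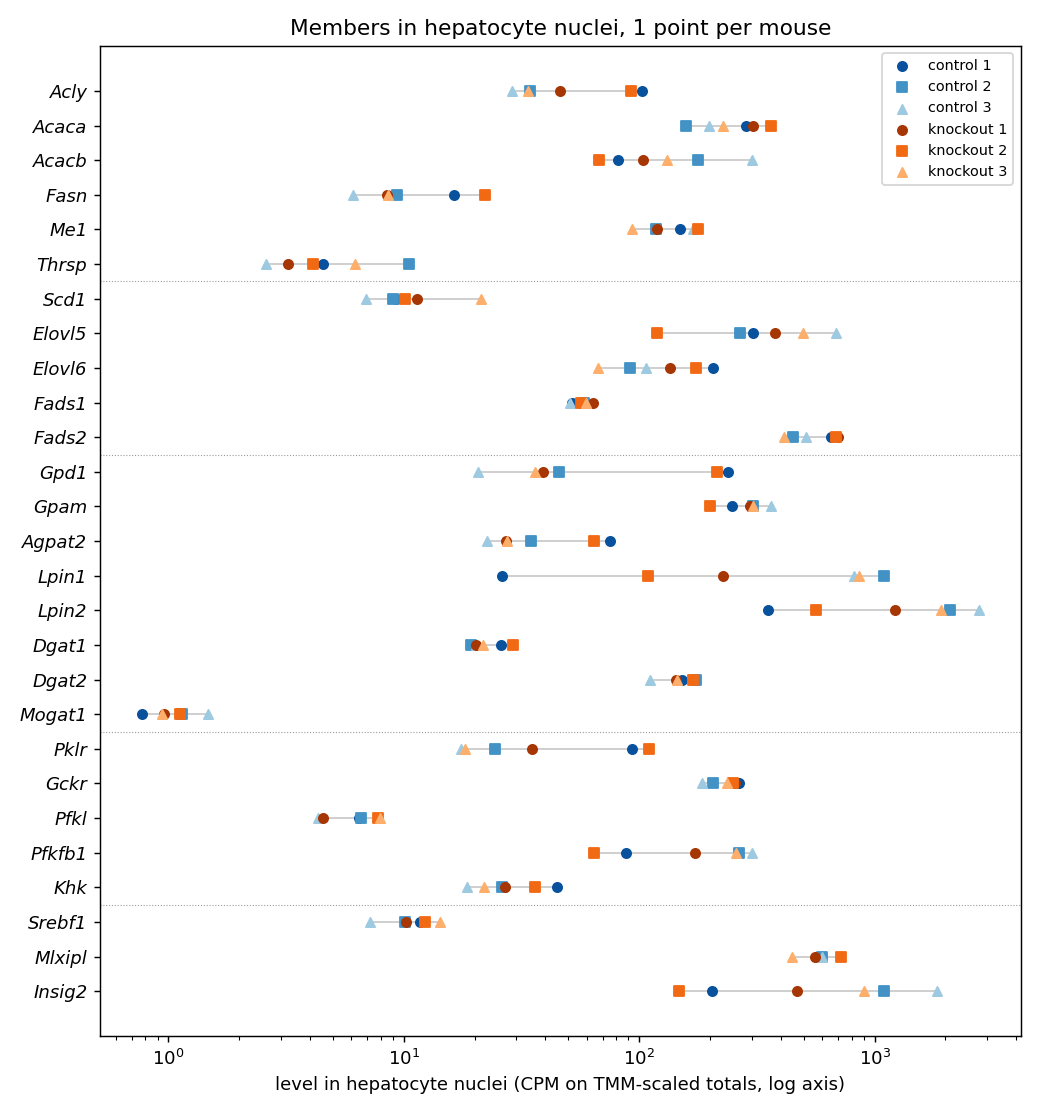
Level of each of the 27 tested members in hepatocyte nuclei, in CPM on TMM-scaled totals (log axis), with 1 point per mouse (blue, controls; orange, knockouts) and a grey line from lowest to highest; dotted lines separate the roles. Lpin1 spans 26.1 to 1094 CPM and Fads1 51.0 to 63.9 CPM, and blue and orange points interleave in all members but Scd1.

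Acly makes cytosolic acetyl-CoA from citrate, the first step out of the mitochondria. It was at 102, 34.5 and 28.7 CPM in the controls 1, 2 and 3 and at 46.2, 91.9 and 33.7 in the knockouts 1, 2 and 3. Control 1 and knockout 2 were the high mice, and the groups overlapped. Fasn, the multifunctional enzyme that builds palmitate, was low throughout, at 16.4, 9.38 and 6.10 CPM in the controls and 8.50, 22.1 and 8.6 in the knockouts, again with control 1 and knockout 2 on top.

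The acetyl-CoA carboxylases make malonyl-CoA, Acaca in the cytosol for synthesis and Acacb at the mitochondrial surface, where malonyl-CoA restrains fatty acid oxidation. Acaca was at 284, 158 and 199 CPM in the controls and 305, 364 and 227 in the knockouts. Control 1 lay within the knockout range, so the groups overlapped (log2 fold change 0.48 with an SE of 0.270, unadjusted p 0.114, adjusted p 1.0 in edgeR). Acacb was at 81.5, 178 and 300 CPM in the controls and 104, 67.6 and 132 in the knockouts. Controls 2 and 3 lay above every knockout and control 1 did not (-0.88, SE 0.463, unadjusted p 0.097 in edgeR).

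Me1 is the cytosolic malic enzyme that supplies NADPH. Its level was 149, 118 and 170 CPM in the controls and 119, 178 and 93.4 in the knockouts, a spread of under 2-fold with no order by group. Thrsp, a lipogenic gene that responds to thyroid hormone and carbohydrate, was near the low end of detection at 4.55, 10.5 and 2.59 CPM in the controls and 3.23, 4.12 and 6.18 in the knockouts, from 281 UMIs in all.

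Scd1 puts the first double bond into palmitate and stearate. It was at 9.27, 9.0 and 6.93 CPM in the controls and 11.4, 10.1 and 21.2 in the knockouts. It was the 1 member of 27 (3.70%) whose groups did not overlap, against 7.66% of all tested genes, and knockout 3 lay well above the other 5 mice. The log2 fold change was 0.75 (SE 0.310, unadjusted p 0.044, adjusted p 1.0 in edgeR), and without knockout 3 it was 0.36. These levels rest on counts summed per mouse. With nuclei thinned to equal depth, Scd1 UMIs per nucleus averaged 0.057, 0.044 and 0.029 in controls and 0.065, 0.053 and 0.068 in knockouts. Control 1 then lay above knockout 2, so the groups overlapped, and knockout 3 lay only slightly above knockout 1. The thinning is described below. Scd2, the isoform of brain and other tissues, gave 6, 4 and 6 UMIs in the controls and 6, 1 and 3 in the knockouts.

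The elongases and the front-end desaturases differed in how steady they were. Elovl5, which lengthens polyunsaturated fatty acids, was at 303, 267 and 685 CPM in the controls and 379, 119 and 497 in the knockouts, with knockout 2 lowest. Elovl6, which lengthens palmitate to stearate, was at 206, 91.6 and 107 CPM in the controls and 136, 174 and 66.7 in the knockouts, with control 1 and knockout 2 highest. Knockout 2 was thus at the low end for Elovl5 and near the high end for Elovl6.

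Fads1, the delta-5 desaturase, had the narrowest range of all members. Its levels were 51.8, 58.0 and 51.0 CPM in the controls and 63.9, 56.4 and 59.7 in the knockouts (0.16, SE 0.132, unadjusted p 0.257 in edgeR). Fads2, the delta-6 desaturase, was at 653, 451 and 511 CPM in the controls and 700, 689 and 412 in the knockouts (0.16, SE 0.264, unadjusted p 0.570 in edgeR). Neither gene separated the groups.

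The glycerolipid genes held the widest range of all members, that of Lpin1, beside narrow ones. Gpd1 makes glycerol 3-phosphate, the backbone of triglyceride, from a glycolytic intermediate. It was at 239, 45.6 and 20.7 CPM in the controls and 39.1, 215 and 36.0 in the knockouts, 11.5-fold between the highest and the lowest mouse. Control 1 and knockout 2 were both over 200 CPM and every other mouse was under 50.

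Lpin1 and Lpin2 encode phosphatidate phosphatases, which make diacylglycerol, and LPIN1 also acts with PPARα and PGC-1α in the nucleus. Lpin1 was at 26.1, 1094 and 821 CPM in the controls and 227, 109 and 855 in the knockouts, a 41.9-fold range that rests on 304 to 8879 UMIs per mouse. Lpin2 was at 352, 2081 and 2767 CPM in the controls and 1224, 565 and 1908 in the knockouts, from 4105 to 29932 UMIs per mouse. For both genes control 1 was lowest and knockout 2 next, the reverse of Gpd1. The fitted difference between the groups was -0.49 for Lpin2 (SE 0.729, unadjusted p 0.521 in edgeR), and it was 0.02 without control 3.

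The other enzymes of triglyceride assembly had narrower ranges. Gpam, the mitochondrial acyltransferase of the first step, was at 248, 303 and 364 CPM in the controls and 294, 201 and 304 in the knockouts (-0.20, SE 0.228, unadjusted p 0.418 in edgeR). Agpat2, the acyltransferase of the next step, was at 74.8, 34.6 and 22.6 CPM in the controls and 27.1, 64.6 and 27.5 in the knockouts, with control 1 and knockout 2 highest. Agpat2 thus followed Gpd1, and Gpam followed the lipins with a range of 1.81-fold.

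The final acyltransferases were steady. Dgat1 was at 26.01, 19.3 and 20.3 CPM in the controls and 20.2, 29.2 and 21.8 in the knockouts. Dgat2, which esterifies newly made fatty acids in hepatocytes, was at 152, 173 and 111 CPM in the controls and 144, 170 and 145 in the knockouts. Mogat1, a monoacylglycerol acyltransferase that is low in healthy liver, was at 0.773, 1.14 and 1.48 CPM in the controls and 0.958, 1.12 and 0.941 in the knockouts, from 61 UMIs.

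Among glycolytic genes, Pklr, the liver pyruvate kinase and a standard ChREBP target, was at 93.0, 24.5 and 17.6 CPM in the controls and 35.1, 111 and 18.1 in the knockouts, again highest in control 1 and knockout 2. Khk, which phosphorylates fructose, was at 44.9, 26.2 and 18.6 CPM in the controls and 26.9, 36.1 and 21.9 in the knockouts. Pfkfb1, the bifunctional enzyme that sets fructose 2,6-bisphosphate in liver, went the other way, at 87.9, 266 and 302 CPM in the controls and 173, 64.3 and 258 in the knockouts. Pklr and Khk were thus high, and Pfkfb1 low, in the same mouse of each group.

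Gckr encodes the protein that holds glucokinase in the nucleus. It was at 267, 205 and 184 CPM in the controls and 256, 250 and 236 in the knockouts (0.18, SE 0.179, unadjusted p 0.354 in edgeR). Pfkl, the liver phosphofructokinase, was at 6.44, 6.59 and 4.34 CPM in the controls and 4.55, 7.77 and 7.93 in the knockouts, from 354 UMIs. Both stayed within a 2-fold range.

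The transcription factors and Insig2 behaved differently from each other. Srebf1 was at 11.7, 10.1 and 7.21 CPM in the controls and 10.2, 12.3 and 14.2 in the knockouts (0.34, SE 0.233, unadjusted p 0.190 in edgeR). Mlxipl was at 567, 596 and 600 CPM in the controls and 559, 722 and 446 in the knockouts (-0.03, SE 0.215, unadjusted p 0.895 in edgeR), so the messenger of ChREBP itself ranged 1.62-fold while that of its target Pklr ranged 6.29-fold. The sign for Mlxipl was 0.04 when totals were not scaled.

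Insig2 was at 204, 1095 and 1844 CPM in the controls and 468, 148 and 902 in the knockouts, 12.4-fold between extremes. Knockout 2 and control 1 were lowest, controls 2 and 3 highest, and the groups overlapped. The fold change between groups was -1.05 on the log2 scale with an SE of 0.847 (unadjusted p 0.254 in edgeR), and leaving out single mice moved it from -1.77 to -0.36.

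Control 1 and knockout 2 lay together at 1 end of the range in 14 of the 27 members (51.9%), against 36.6% of all tested genes. Both were above the other 4 mice in 8 members (29.6%, against 19.1%), which were Agpat2, Pklr, Elovl6, Khk, Acly, Fasn, Dgat1 and Gpd1. Both were below in 6 (22.2%, against 17.6%), which were Insig2, Acacb, Lpin1, Lpin2, Gpam and Pfkfb1. These shares describe the 6 libraries, and the division was known before the genes were listed.

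Of 15 genes that fasting switches on, control 1 and knockout 2 were both below the other 4 mice in 8, both above in 1 and neither in 6. The list, which includes Pck1, G6pc and Cpt1a, had a mean deviation from each gene's own average of -0.66, 0.39 and 0.73 log2 units in the controls 1, 2 and 3 and 0.05, -0.56 and 0.05 in the knockouts. Mitochondrially encoded transcripts deviated by -0.26, -0.21 and 0.21 in the controls and 0.02, -0.29 and 0.52 in the knockouts. Summed markers of macrophages in the hepatocyte nuclei were at 143, 720 and 464 CPM in the controls and 101, 94.2 and 219 in the knockouts (10 markers, none at 0 in all mice), and the 11 endothelial ones ranged from 104 to 179 CPM. The part of any of these in the result was not tested.

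**Figure D2:**
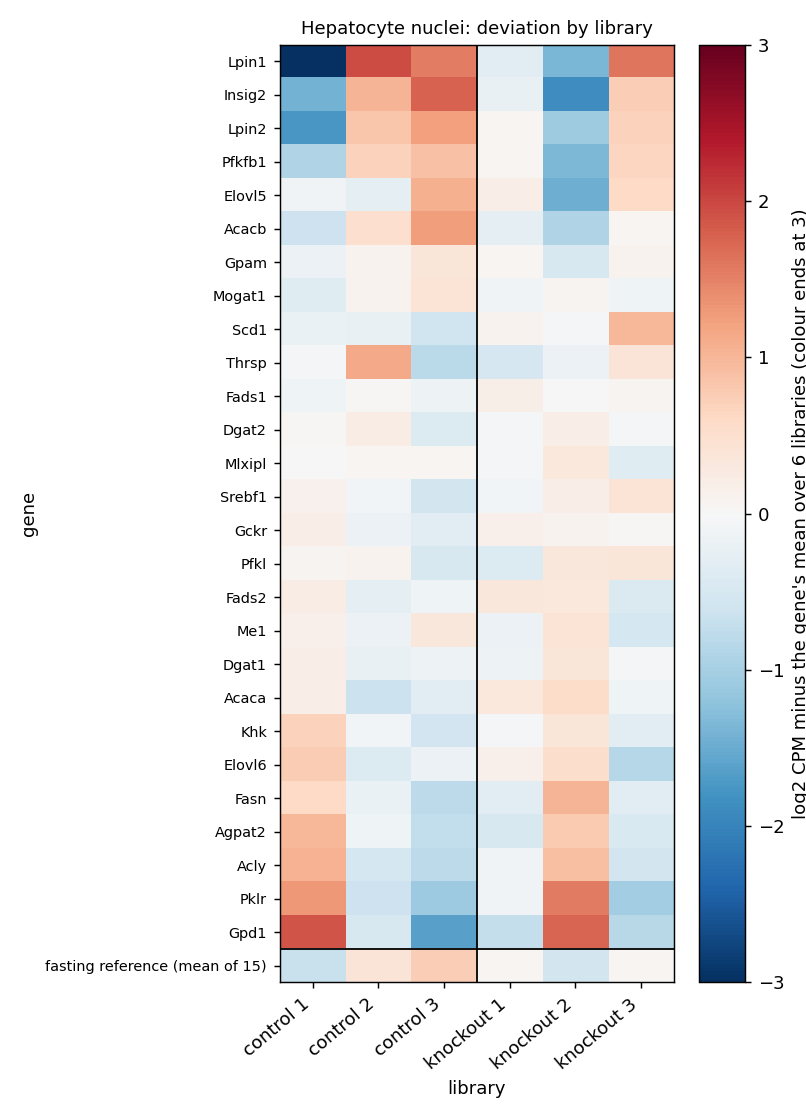
Log2 CPM of each tested member in hepatocyte nuclei minus that gene's mean over the 6 mice (red, above; blue, below; colour ends at 3 units), with the mean of 15 fasting genes in the last row. Control 1 and knockout 2 share blue at Lpin1, Insig2 and Lpin2 and red at Gpd1 and Pklr, in differing depth. Lpin1 in control 1 is past the end of the colour scale, at -3.42, and in knockout 2 it is at -1.36. The fasting row is at -0.66 in control 1 and -0.56 in knockout 2.

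Without control 1 and knockout 2, 26 members were tested and 0 of them, and 0 of 13535 genes, passed the adjusted threshold in edgeR. Unadjusted p below 0.05 was then found for 4 members (15.4%, against 5.73% of genes), which were Acacb (log2 fold change -1.01, unadjusted p 0.0094), Scd1 (1.04, 0.021), Insig2 (-1.10, 0.031) and Acaca (0.58, 0.036). With 2 mice in each group the median log2 fold change of the members was 0.06. The signs of these 4 were the same as with all 6 mice.

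Within single nuclei, control 1 and knockout 2 lay below the other mice at each quartile for Lpin2 and Insig2. Nuclei of at least 5000 UMIs were thinned to 5000 each, which left out 21 to 50 nuclei per library. Lpin2 then had a median of 1, 10 and 12 UMIs per nucleus in the controls and 5, 2 and 9 in the knockouts, and the upper decile of control 1, at 4 UMIs, equalled the lower decile of control 2. For Insig2 the medians were 1, 4 and 7 in the controls and 2, 0 and 3 in the knockouts. Pklr, Acly and Fasn had a median of 0 in every mouse, so how their differences were spread over nuclei cannot be read.

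The median for Lpin1 was 0, 5 and 3 UMIs in the controls and 1, 0 and 3 in the knockouts, and for Gpd1 it was 1, 0 and 0 against 0, 1 and 0. All 28 members together gave a median of 22, 35 and 40 UMIs per nucleus in the controls and 27, 23 and 33 in the knockouts, and the sums of control 1 and knockout 2 were the lowest. A sum follows the most abundant members, and the mean deviation of the 27 members from each gene's own average was -0.02 log2 units in control 1 and 0.04 in knockout 2. For Mlxipl the medians lay between 2 and 4 UMIs in each mouse.

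**Figure D3:**
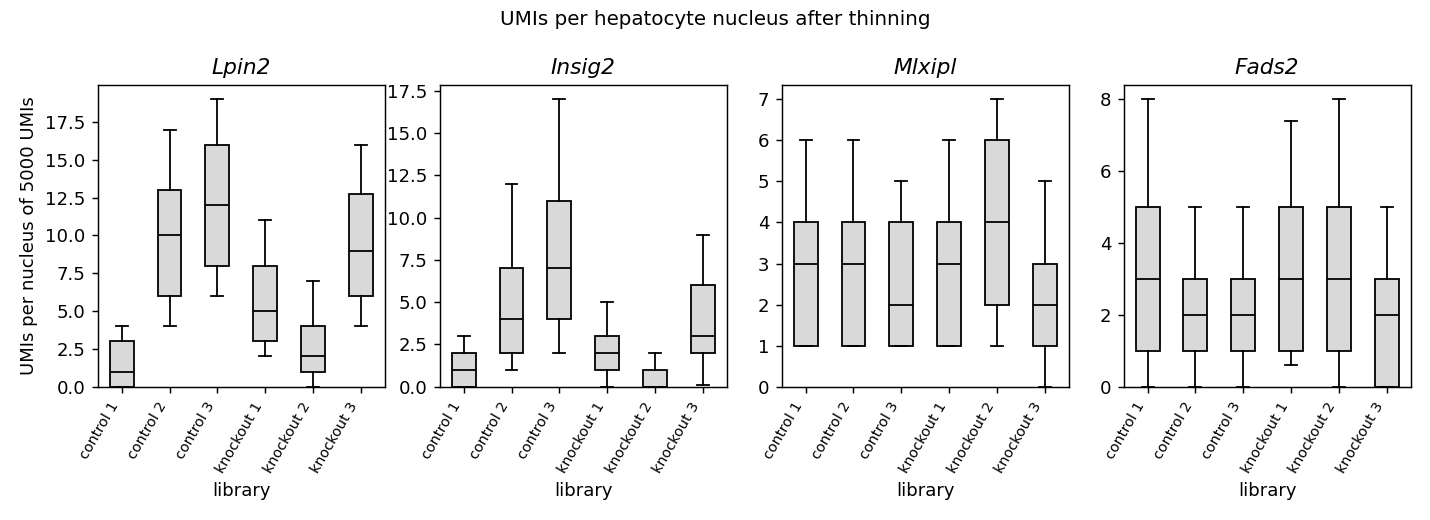
UMIs per hepatocyte nucleus, thinned to 5000 UMIs, for Lpin2, Insig2, Mlxipl and Fads2 in each mouse (box, quartiles with the median line; whiskers, the 10th and 90th percentiles). The boxes of Lpin2 and Insig2 in control 1 and knockout 2 sit low as a whole, with medians of 0 to 2 UMIs, while the medians of Mlxipl and Fads2 lie between 2 and 4 in all 6 mice.

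Levels were then read by zone, since the lobule divides its metabolism between the portal vein, where oxygen and nutrients enter, and the central vein. Hepatocyte nuclei of each mouse were split into 3 equal zones by a score of pericentral markers such as Glul and Cyp2e1 minus periportal ones such as Cyp2f2 and Hsd17b13, none of them a member. Zones are ranges of that score and not cell types, and 1880 of the 5217 nuclei lay within 0.1 SD of a boundary. Levels set between zones are CPM on plain totals. Glul itself was at 950 CPM in the pericentral zone and 9.21 in the periportal zone.

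Between the pericentral and periportal zones of the same mice, 17 of 26 members passed edgeR's adjusted threshold, 4 higher on the pericentral side and 13 on the periportal side, against 24.7% of 11451 genes (11.9% higher, 12.9% lower). Acly was at 49.0, 10.1 and 12.4 CPM in the pericentral zone of controls and 33.3, 55.9 and 22.2 in that of knockouts, and at 141, 43.3 and 34.4 and 52.6, 124 and 31.9 in the periportal zone (log2 ratio -1.25, SE 0.162, adjusted p 2.6e-04). Acly was lower on the pericentral side in 6 of 6 mice.

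Pklr fell toward the central vein by 0.80 log2 units (SE 0.109, adjusted p 1.5e-05 in edgeR), Elovl6 by 0.70 (SE 0.071, 3.7e-07), Acaca by 0.69 (SE 0.063, 8.2e-08) and Khk by 0.68 (SE 0.117, 1.8e-04), each in 6 of 6 mice. The mean of Acaca was 187 ± 66.4 CPM (SD, n = 6) in the pericentral zone, 293 ± 111 in the middle and 293 ± 92.9 in the periportal zone, so the step lay on the pericentral side. Fads2 (-0.56), Elovl5 (-0.57) and Gckr (-0.45) were also lower on the pericentral side in 6 of 6 mice. Fads1 (-0.36) and Srebf1 (-0.73) were so in 5 of 6, as were Acacb (-0.25) and Insig2 (-0.18, adjusted p 0.049).

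The lipins ran in opposite directions. Lpin1 was lower pericentrally, at 382 ± 346 CPM against 564 ± 463 in the periportal zone, with a log2 ratio of -0.73 (SE 0.079, adjusted p 2.1e-06 in edgeR). Lpin2 was higher pericentrally, at 1636 ± 864 CPM against 1300 ± 792 (0.38, SE 0.069, adjusted p 3.7e-04 in edgeR). The large SDs are the spread between mice, and within mice the direction held in 6 of 6 for each gene.

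Pfkfb1 (0.58, SE 0.074, adjusted p 8.6e-06), Mlxipl (0.25, SE 0.059, 0.0033) and Dgat2 (0.24, SE 0.061, 0.0059) were the others higher on the pericentral side in edgeR, each in 6 of 6 mice. ChREBP's messenger was thus pericentral while that of Pklr was periportal. Fasn (-0.27, SE 0.163), Gpd1 (-0.23, SE 0.097), Gpam, Agpat2, Dgat1, Pfkl, Scd1, Thrsp and Me1 did not pass. Mogat1 and Scd2 were too low to test.

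Some of these calls were narrow. DESeq2 kept 14 of the members' calls and lost Insig2, Acacb and Dgat2. The Insig2 call was also lost with totals not scaled, without control 1, control 2, control 3 or knockout 3 and with a second list of zone markers, the Acacb call without control 2 or knockout 3 and with the second list, the Srebf1 call without control 3 or knockout 3, and the Fads1 call without control 1 and knockout 2 together. Every one of these kept its sign.

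**Figure D4:**
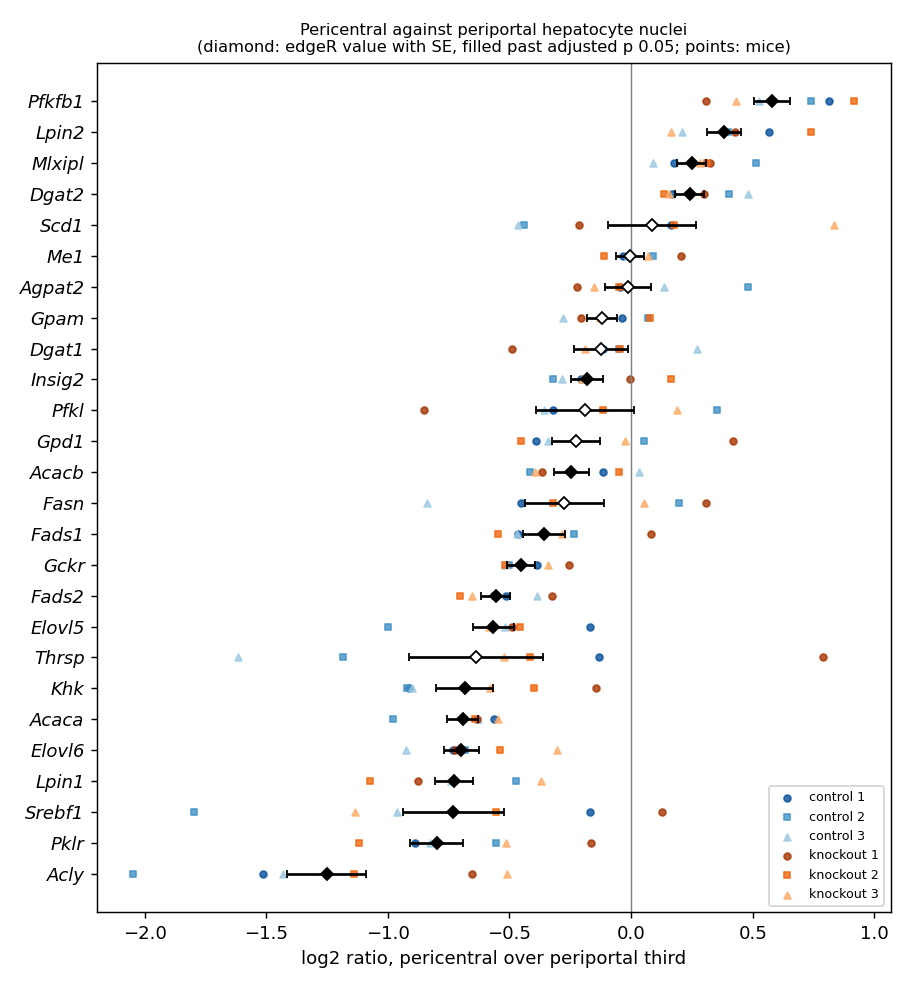
Log2 ratio of the pericentral over the periportal zone for the 26 members tested, with the edgeR value and its SE (diamond, filled where the adjusted p is below 0.05) and the ratio of each mouse (points). Points of Pfkfb1, Lpin2, Mlxipl and Dgat2 lie right of 0 in all 6 mice and those of Acly, Pklr, Lpin1, Elovl6, Acaca and Khk lie left of 0 in all 6.

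The knockout effect did not pass in any zone. In the pericentral, middle and periportal zones, 0 of 26 members were called by edgeR and 0 had an unadjusted p below 0.05, against 0% of genes called and 3.74%, 3.18% and 3.22% at an unadjusted p below 0.05. DESeq2 called 0 members and 11, 9 and 7 genes. Groups did not overlap for Scd1 in the pericentral zone (1 of 26, against 8.34% of genes), for no member in the middle (against 7.63%) and for Fads1 in the periportal zone (1 of 26, against 7.66%).

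Scd1 in the pericentral zone was at 9.46, 6.02 and 6.36 CPM in the controls and 9.57, 9.86 and 32.6 in the knockouts (log2 fold change 1.21 with an SE of 0.524, unadjusted p 0.052 in edgeR). The highest control and the lowest knockout were almost level, and knockout 3 alone was far above. These levels are on TMM-scaled totals of the zone, and on plain totals the groups overlapped, with control 1 at 10.1 and knockout 1 at 9.56 CPM. In the periportal zone it was at 8.37, 8.48 and 8.96 against 11.2, 8.54 and 18.0 CPM (0.53, SE 0.308, unadjusted p 0.124). Acaca was between 0.42 and 0.52 in the 3 zones and Acacb between -0.96 and -0.79, and Pfkl in the middle zone was at 0.70 (SE 0.357, unadjusted p 0.086 in edgeR).

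Whether the knockout effect differed between zones was tested directly, and 0 of 26 members passed in edgeR, against 0.0524% of 11451 genes, while DESeq2 called 0 members and 7 genes. The 3 members with an unadjusted p below 0.05, against 5.47% of genes, were Acly (difference 0.78 log2 units, SE 0.204, unadjusted p 0.0012, adjusted p 0.373), Khk (0.57, SE 0.201, unadjusted p 0.010) and Insig2 (0.27, SE 0.119, unadjusted p 0.038). For Acly the values above give a pericentral level that was a smaller part of the periportal one in each control than in each knockout. With no filter on low counts Acly passed, at 0.77 and an adjusted p of 0.018.

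Outside hepatocytes, most members were low. CPM between classes uses plain totals of all genes. Relative to hepatocytes of the same mice, 26 members were tested in each of 7 other classes with edgeR. Those called lower were 23 in stellate nuclei (against 37.5% of genes), 24 in endothelial nuclei (38.9%), 21 in macrophages (40.3%) and 21 in T and NK cells (37.7%). They were 20 in B cells (37.6%), 22 in cholangiocytes (32%) and 22 in portal mesenchyme (32.4%). Called higher was 1 member in stellate nuclei (against 37.2% of genes), endothelial nuclei (38.2%), macrophages (36.1%), T and NK cells (30.3%), cholangiocytes (28%) and portal mesenchyme (29.6%), and 2 in B cells (25.6%). Mlxipl was at 583 ± 110 CPM (SD, n = 6) in hepatocytes, 55.6 ± 11.9 in cholangiocytes and 1.45 ± 0.967 in stellate nuclei, and Insig2 was at 741 ± 573 CPM in hepatocytes and between 36.1 and 81.1 elsewhere.

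Fads2 was at 574 ± 155 CPM in hepatocytes, 101 ± 16.3 in cholangiocytes and 4.62 to 36.3 in the other classes. Lpin2 was at 1430 ± 833 CPM in hepatocytes and 267 ± 38.7 in macrophages, and between 43.5 and 138 elsewhere. Free RNA from hepatocytes can reach other nuclei, and its amount was not estimated. For 20 transcripts restricted to hepatocytes, such as Alb and Apoa1, the medians were 10.4% to 23.3% of their hepatocyte level in the other classes. Single transcripts ranged widely, from 0.589% to 31.7% in stellate nuclei, where Mlxipl was at 0.248%. The medians are thus no common level of free RNA. The members that lay above the highest of those 20 were 6 to 8 per class. Dgat1, Pfkl, Scd1, Scd2 and Srebf1 did so in each of the 7.

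**Figure D5:**
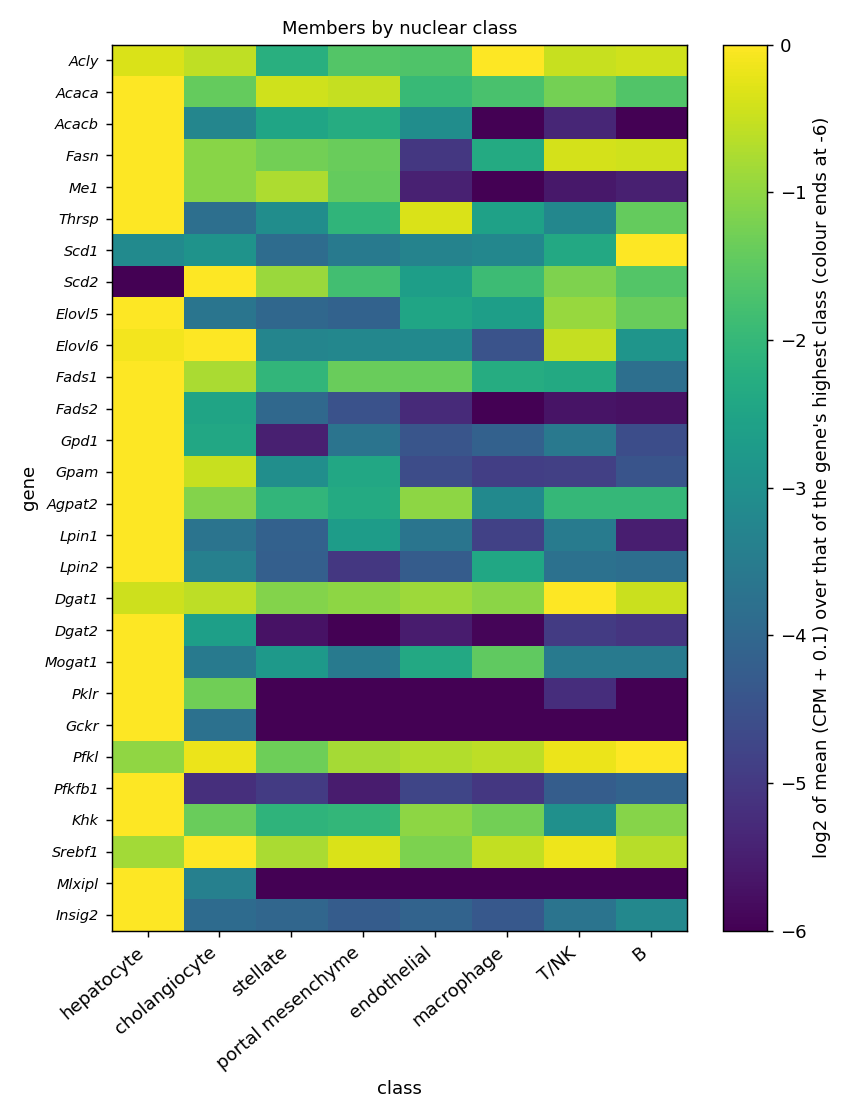
Mean CPM of each member over the 6 mice in 8 classes of nuclei, as log2 of the level (plus 0.1) over that in the gene's own highest class, so that rows are read across and not against each other. Hepatocytes are the brightest class for 21 of the 28 genes, and the exceptions are Acly, Scd1, Scd2, Elovl6, Dgat1, Pfkl and Srebf1.

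The members whose highest class was not the hepatocyte were desaturases, elongase 6 and genes of general use. Scd2 was at 0.460 ± 0.206 CPM in hepatocytes and 48.1 ± 13.8 in cholangiocytes (log2 difference 6.07, SE 0.321 in edgeR), and it was called higher in each of the 7 classes. Scd1 was at 99.3 ± 24.0 CPM in B cells against 11.3 ± 4.996 in hepatocytes (2.58, SE 0.180). These were the 2 genes called higher than in hepatocytes.

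Scd1 in B cells was at 86.2, 66.4 and 92.5 CPM in the controls and 98.1, 119 and 134 in the knockouts, from 180 UMIs. That class was not compared between groups, so no share of all genes stands beside these values. Elovl6 was at 143 ± 30.9 CPM in cholangiocytes, 132 ± 61.0 in hepatocytes and 98.4 ± 19.2 in T and NK cells. Its cholangiocyte difference was -0.33 (SE 0.145) on TMM-scaled totals and 0.18 on plain totals, so no order is read.

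Acly was at 73.8 ± 13.1 CPM in macrophages and 57.9 ± 36.8 in hepatocytes (0.19, SE 0.169, adjusted p 0.303 in edgeR), and without control 1 and knockout 2 the difference was 0.77 and passed. Srebf1 was at 19.8 ± 4.77 CPM in cholangiocytes and 11.03 ± 2.77 in hepatocytes (0.40, SE 0.261, adjusted p 0.183 in edgeR). Dgat1 in T and NK cells (31.4 ± 12.6 against 22.97 ± 5.38 CPM) and Pfkl in B cells (12.6 ± 7.47 against 6.31 ± 1.76 CPM) did not pass. Their signs changed with the scaling for Dgat1 and without knockout 1 for Pfkl.

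In stellate nuclei, the cells in which the gene was targeted, 21 members were tested between knockout and control and 0 were called by edgeR, against 0.0509% of 11798 genes, with 1 at an unadjusted p below 0.05 (against 4.32% of genes), and DESeq2 called 0 members and 16 genes. Scd1 was at 3.11, 6.63 and 3.36 CPM in the controls and 8.75, 9.80 and 8.45 in the knockouts (log2 fold change 1.04 with an SE of 0.344, unadjusted p 0.011, adjusted p 1.0 in edgeR), from 101 UMIs. Insig2 was at 56.7, 52.2 and 44.1 against 39.4, 43.3 and 41.3 CPM (-0.31, SE 0.144, unadjusted p 0.056). These were the 2 of 21 members (9.52%) whose groups did not overlap, against 9.93% of genes. Insig2 there was at 6.17% of its hepatocyte level, below the 10.4% median of the hepatocyte transcripts, and Scd1 was at 58.9%.

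In endothelial nuclei 25 members were tested and 0 called by edgeR, against 0% of 13341 genes, with 4 at an unadjusted p below 0.05 (against 4.32% of genes) and 0 members and 18 genes called by DESeq2. Fads2 was at 13.8, 9.26 and 11.9 CPM in the controls and 18.4, 20.1 and 13.8 in the knockouts (0.58, SE 0.205, unadjusted p 0.016). Acacb (-0.39, SE 0.164, unadjusted p 0.039), Khk (0.48, SE 0.207, 0.040) and Scd1 (0.54, SE 0.238, 0.046) followed. Groups did not overlap in 5 of 25 (20%), Gckr, Dgat2, Fads2 and Scd1 higher in the knockouts and Acacb lower, against 9.57% of genes. Relative to hepatocytes, Gckr was at 0.75%, Dgat2 at 2.09%, Fads2 at 2.54%, Acacb at 11.9% and Scd1 at 87.6% there. All but Scd1 lay below the 13.7% median of the transcripts restricted to hepatocytes. That median is no common level of free RNA, and the part of free hepatocyte RNA in these values was not tested.

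In macrophage nuclei 20 members were tested and 0 called by edgeR, against 0% of 12134 genes, with 2 at an unadjusted p below 0.05 (against 3.37% of genes) and 0 members and 7 genes called by DESeq2. Agpat2 was at 3.38, 3.50 and 2.70 CPM in the controls and 5.38, 6.27 and 7.36 in the knockouts (0.98, SE 0.292, unadjusted p 0.0075). Scd1 was at 9.37, 9.79 and 6.91 against 14.2, 10.1 and 13.5 CPM (0.52, SE 0.235, unadjusted p 0.050). Groups did not overlap in 3 of 20 (15%, with Insig2 lower in the knockouts), against 8.84% of genes. Agpat2, at 11.1% of its hepatocyte level, and Insig2, at 4.86%, lay below the 11.2% median of the hepatocyte transcripts there, and Scd1 was at 93.7%.

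In cholangiocyte nuclei 13 members were tested, 0 were called and 0 had an unadjusted p below 0.05 in edgeR, against 0% of 6642 genes called and 4.31% at an unadjusted p below 0.05, and DESeq2 called 0 members and 1 gene. Me1 was the 1 of 13 (7.69%) whose groups did not overlap, against 8.49% of genes. Over all kept nuclei of a mouse, Scd1 was at 9.89, 8.67 and 7.23 CPM in the controls and 12.9, 12.1 and 18.4 in the knockouts (0.75, SE 0.208, unadjusted p 0.0087, adjusted p 1.0 in edgeR). Scd1 was the 1 of 28 members that did not overlap there, against 7.41% of genes, and 0 members and 2 of 18269 genes passed, with 1 member and 3.16% of genes at an unadjusted p below 0.05.

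Other genes of the pathway, in lists made with earlier results of these data known, were read in the same hepatocyte fit. In it, 0 of them and 0% of all genes were called. Of 19 tested further genes of fatty acid synthesis and activation, 13 were higher and 6 lower in the knockouts (median 0.06). Acsl3, an acyl-CoA synthetase, was at 0.48 (SE 0.180, unadjusted p 0.031 in edgeR), and Elovl3, an elongase of very long chains, was at -0.97 (SE 0.441, unadjusted p 0.063). Of 14 triglyceride genes, 4 were higher and 10 lower (median -0.21), with the acyltransferases Gpat4 at -0.45 (SE 0.190, unadjusted p 0.048) and Lpgat1 at -0.45 (SE 0.292, unadjusted p 0.165).

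Of 18 further genes of glycolysis and fructose use, 6 were higher and 12 lower (median -0.04). Pfkfb3 was at 7.73, 54.6 and 38.5 CPM in the controls and 14.97, 9.73 and 25.1 in the knockouts (-1.02, SE 0.662, unadjusted p 0.166 in edgeR), lowest in control 1 and knockout 2 as Pfkfb1 was, and Aldoa was at 0.44 (SE 0.240, unadjusted p 0.110). Of 8 genes that supply NADPH, 4 were higher and 4 lower, with Idh1 at -0.18 (SE 0.151) and Rpia at 0.20 (SE 0.299).

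Of 20 further regulators, 11 were higher and 9 lower (median 0.05). Scap, the escort protein that INSIG2 retains, was at 63.9, 68.4 and 80.3 CPM in the controls and 93.6, 100.1 and 88.3 in the knockouts (0.41, SE 0.143, unadjusted p 0.024, adjusted p 1.0 in edgeR). Irs1, an adaptor of the insulin receptor, was at 170, 162 and 200 against 144, 131 and 127 CPM (-0.40, SE 0.147, unadjusted p 0.028). Groups did not overlap for 4 of the 20 (20%, against 7.66% of all tested genes), Scap, Irs1, Nr1h2 and Nr1h3, the last pair named after their values were seen.

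Of the 15 fasting genes, 1 was higher and 14 lower in the knockouts (median -0.32), and 0 passed in edgeR. Of all 13725 tested genes, 6793 were higher and 6932 lower. Some lists leaned the other way, with 17 of 20 transcripts restricted to hepatocytes (median 0.35) and 8 of 9 mitochondrially encoded ones higher. The mean deviation of the fasting genes ran from -0.66 in control 1 to 0.73 in control 3, and 10 were lowest in control 1 or knockout 2. Their signs are thus not independent, and no fall of the list as a whole is read from the count. Acot1, a peroxisome proliferator target that frees fatty acids from coenzyme A, was at 22.8, 20.2 and 25.8 CPM in the controls and 13.5, 12.6 and 11.4 in the knockouts (-0.87, SE 0.161, unadjusted p 8.5e-04, adjusted p 1.0). Pdk4, which blocks pyruvate oxidation, was at 17.5, 42.7 and 76.3 against 16.6, 15.5 and 6.99 CPM (-1.79, SE 0.552, unadjusted p 0.014). Acot1 and Pdk4 were the 2 of 15 (13.3%) whose groups did not overlap, against 7.66% of all tested genes. Among the 20 transcripts restricted to hepatocytes the share was 25%. Control 1 lay above every knockout for both Acot1 and Pdk4, whereas for Lpin1 and Lpin2 it lay below every knockout.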

How the data were processed

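Libraries were made with a 10x Genomics single-nucleus workflow, and mm10 and Cell Ranger 7.0.1 stand in the submitters' processing notes, while the file headers name 7.1.0. The deposited matrices hold raw UMI counts per gene and barcode, per the file headers and the values. The use of intronic reads and of strand was not given in the sources used here. From 27297 barcodes, nuclei with at least 500 genes, at least 1000 UMIs and under 5% mitochondrial UMIs were taken, and 804 doublets called by scrublet (expected rate 0.06) were removed, leaving 25663. Clusters (scanpy 1.11.5, 3000 variable genes without Plvap, the 28 genes and the pathway lists, 30 components, 15 neighbours, Leiden 0.10.2 at resolution 1) were named from markers. Clusters that matched no class, were mostly doublet calls or came almost wholly from 1 library were left out (491 nuclei, 351 from control 2, where 1 cluster of 304 nuclei was 96.4% from that library). Counts were summed per mouse and class, or per zone.

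Tests were edgeR 4.0.16 quasi-likelihood (R 4.3.3, TMM, filterByExpr, Benjamini-Hochberg over all tested genes, threshold 0.05), with mouse as a block between zones and between classes. Alternatives were other scaling, DESeq2 1.42.0, no low-count filter, thinning, other zone definitions, doublets kept, a lower mitochondrial limit and leaving out libraries. The procedure was tested on simulated data. In hepatocytes every tested member is given per mouse. Fold changes are given for the 8 with the smallest p and the 4 of highest level, for the 3 of smallest p per zone, and for the 2 of smallest p per pathway list. Members named in other classes between knockout and control were chosen after their values were seen. The members, the lists and the libraries left out were chosen with earlier results of these data known. Gene positions are from GENCODE on mm10, and promoters from RefSeq.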

Additional observations from a re-analysis of the deposited data

How the results depend on the processing

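No paired analysis was possible because replicate numbers were given in accession order and pair no mice between the groups. In hepatocytes and in each zone and class, the number of members called between knockout and control was 0 under each alternative run. The members called between zones numbered 14 to 19 over the alternatives, and 14 to 19 when single mice were left out. The difference of the knockout effect between zones called 1 member, against 0, with no filter on low counts. The members called between classes and hepatocytes numbered 152 to 162, against 161. Among the gene values followed through the alternatives, signs reversed for few. With totals unscaled, Mlxipl between groups was 0.035, Elovl6 in cholangiocytes against hepatocytes 0.18 and Dgat1 in T and NK cells against hepatocytes 0.42. Leaving out single mice, Mlxipl ranged from -0.23 to 0.13, Lpin2 from -0.98 to 0.017, the difference for Rpia, hepatocytes, knockout against control, from -0.018 to 0.49 and Pfkl in B cells against hepatocytes from -0.13 to 0.57. Many other members also changed sign in hepatocytes when single mice were left out. Between knockout and control, Gpd1 ranged from -1.44 to 1.55, Pklr from -0.76 to 1.39 and Acly from -0.47 to 0.86. Lpin1 (-1.94 to -0.09) and Pfkfb1 (-0.88 to -0.02) kept their sign. The cause was not tested. The median over the members in hepatocytes was 0.26 without control 1 and 0.11 without knockout 3, against -0.07. Of the other values followed through the alternatives, single genes and medians over the members, 869 kept direction and side of the threshold, 22 lost a call and 8 gained one. All nuclei summed per mouse, an alternative chosen after seeing the data, called 0 members. Depth limits Scd2, Mogat1 and Thrsp in hepatocytes and most members in the rarer classes.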
